A study of Canis lupus familiaris with 10 samples.

Results

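Genes of glycolysis and of the response to low oxygen were examined in cutaneous histiocytoma of the dog (CCH), which arises in the skin from cells of the Langerhans cell lineage and usually regresses on its own. The members were 38 genes listed by symbol, and all 38 were found among the 23266 gene symbols of the deposited table. A normalized read count of at least 10 in at least 5 libraries was required for testing, which 36 of the 38 genes passed, out of 12397 genes in all. HK3 and CA9 did not pass.

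Expression was measured by QuantSeq 3′, which sequences a single short fragment near the polyadenylated end of each transcript, in formalin-fixed, paraffin-embedded (FFPE) tissue. The labels place 5 tumors in group 1 and 5 in group 3 of the staging scheme of Cockerell and Slauson, called early and late CCH here, and those of group 3 are labeled as lymphocyte enriched. The tumors came from privately owned dogs of various breeds, aged 0.5 to 5 years in early (4 with an age given) and 1.5 to 9 years in late CCH, and no treatment or engineered allele is named. Whole cross sections trimmed of adjacent tissue were used, so that each library holds tumor cells together with infiltrating and skin cells, and fewer cells of a type cannot be told apart from less RNA per cell.

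Glycolysis splits glucose into pyruvate in a chain of cytosolic enzymes and yields ATP without oxygen. Glucose enters through SLC2A transporters, and pyruvate is either reduced to lactate, which leaves through SLC16A transporters, or passed to mitochondria through pyruvate dehydrogenase. The hypoxia-inducible factors (HIF), with the oxygen-regulated subunits HIF1A and EPAS1, raise the transcription of most of these genes when oxygen is low, and the EGLN prolyl hydroxylases mark both subunits for degradation when it is present. Activated lymphocytes, macrophages and dendritic cells are known to increase glycolysis as well.

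Reads counted to genes, as recovered from the deposited values, totaled 3132916 to 4439709 per library in early and 2973125 to 3230455 in late CCH. These totals differed between the stages (exact two-sided permutation p = 0.0238). They are lower than the numbers of reads sequenced, which were not examined here. RNA integrity, given in the labels as DV200 (the percentage of long fragments), was 68.5% ± 2.46 in early and 73.2% ± 2.09 in late samples (SD, n = 5 each, exact two-sided permutation p = 0.0238). For 1 late sample the study's own table lists a higher DV200 than the label used here. The study's RNA extraction batches each held a single stage, and an effect of the batch cannot be told apart from one of the stage. The summed normalized read count of 12 T-cell genes was 91.4 to 2811 in early and 4540.2 to 7074 in late CCH, and all 12 had a positive log2 fold change (log2FC). Of the Langerhans and dendritic cell list of 10 genes, CD207 and CD1A9 were not analysed here and 6 passed the filter, all with a negative log2FC, while the summed level of the 8 genes at hand was 854 to 2491 in early and 628 to 972 in late CCH. CD1B and CD1C stayed under the filter.

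No member was called as differing between the stages. A call required a Benjamini-Yekutieli (BY) adjusted p of at most 0.05 from limma and a size of the log2FC of 1 or more, where log2FC is the late minus the early mean of log2(value + 1). None of the 36 members was called higher, against 1.06% of all genes tested, and none was called lower, against 1.11%. At an unadjusted p of at most 0.05, 9 members were higher in late CCH (15.6% of all genes tested) and 4 were lower (15.3%). The median log2FC of the members was 0.19, with 25 positive and 11 negative values, beside a median of -0.0037 over all genes tested. For 2 members, ENO2 and ALDOC, all late values lay above all early values, as for 5.91% of all genes tested. For no member did all late values lie below all early values, which was the case for 6.05% of all genes.

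The edgeR quasi-likelihood test on the recovered reads also called no member, where it called 81 of all 12397 genes tested higher and 96 lower. DESeq2 called ENO2 higher, where it called 3.87% of all genes higher. With Benjamini-Hochberg (BH) adjustment of the limma p-values, ENO2 was called higher and SLC2A1 lower, and 5.53% and 3.52% of all genes were called in these directions.

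**Figure D1:**
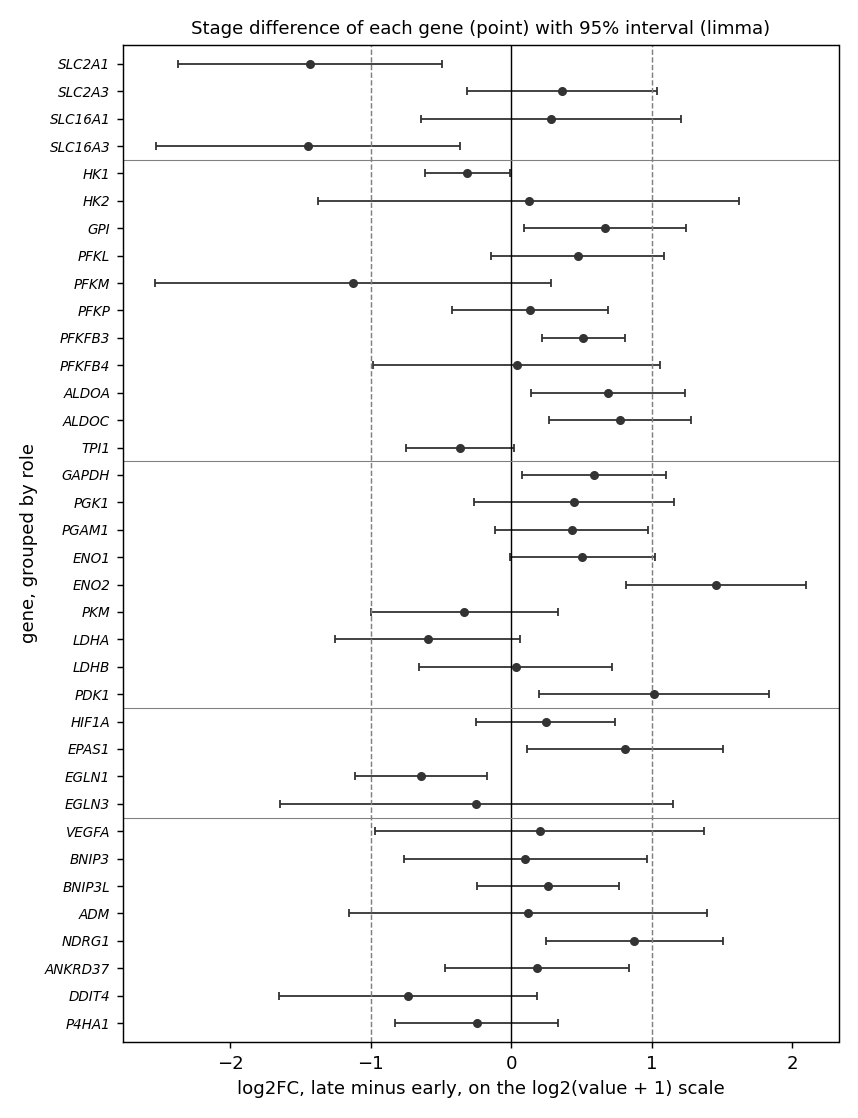
Log2FC of the 36 genes tested (x axis, late minus early, from log2(value + 1)) with unadjusted 95% intervals from limma, genes on the y axis grouped by role and dashed lines at a size of 1. ENO2 lies farthest to the right at 1.46, and SLC16A3 and SLC2A1 farthest to the left at -1.45 and -1.43.

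The transporters did not share a direction. SLC2A1 encodes GLUT1, the widespread basal glucose transporter. Its normalized read counts in the early libraries were 505, 518, 236, 365 and 326, and in the late libraries 161, 178, 86.2, 53.2 and 379. Of the late libraries, 4 lay below every early library, while late library 5 lay within the early range. The means were 390.0 ± 120.4 and 171 ± 127 (SD, n = 5 each), and the log2FC was -1.43 ± 0.43 (SE, BY-adjusted p = 0.423, limma). When single libraries were omitted, the log2FC ranged from -1.79 without late library 5 (adjusted p = 0.117, limma) to -1.09 without late library 4, where the gene was lowest (adjusted p = 0.892).

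SLC16A3 encodes MCT4, a transporter that exports lactate. It had normalized read counts of 593, 445, 370.0, 247 and 573 in early and of 214, 159.8, 193, 35.8 and 379 in late CCH. The pattern over libraries resembled that of SLC2A1, with 4 late libraries below every early library and late library 5 within the early range. Its log2FC was -1.45 ± 0.50 (SE, BY-adjusted p = 0.676, limma), and it was -0.92 without late library 4, where the gene was lowest.

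SLC2A3, which encodes the high-affinity glucose transporter GLUT3 of neurons and leukocytes, was the more abundant glucose transporter in every library. It ranged from 810.5 to 1833 in early and from 915 to 3114 in late CCH, with a log2FC of 0.36 ± 0.31 (SE, 95% interval -0.31 to 1.04). SLC16A1, the lactate transporter MCT1, was low in both stages, with 18.1 to 94.9 in early and 34.9 to 93.2 in late CCH. Its interval of -0.64 to 1.21 on the log2 scale leaves room for a change in either direction.

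The glucose transporters were also set against each other within a library. The log2 ratio of SLC2A1 to SLC2A3 was -1.79 ± 0.59 in early and -3.58 ± 0.42 in late CCH (SD, n = 5 each). It spanned -2.46 to -1.15 in the early and -4.08 to -3.04 in the late libraries, with no overlap. It was the only pair without overlap among the 12 gene pairs examined in this way, while 5.91% and 6.05% of single genes lay wholly higher or wholly lower in late CCH, so that 1 such pair is no result about the pairs. The ratio of SLC16A1 to SLC16A3 was -3.05 ± 0.54 in early and -1.33 ± 1.18 in late CCH, and its ranges overlapped. A keratinocyte list of 9 genes, which stands for a cell type known to carry SLC2A1, had summed levels of 872 to 16972 in early and 706 to 8805 in late CCH, and its part in these differences was not tested.

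**Figure D2:**
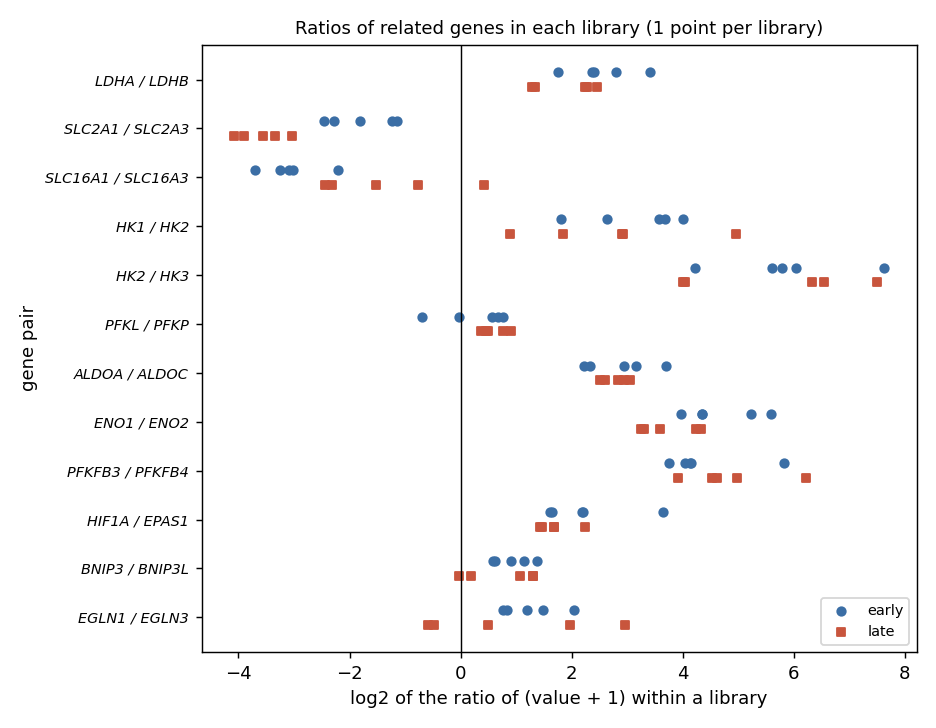
Log2 ratio of (value + 1) of related genes within each library (x axis) for 12 gene pairs (y axis), with circles for the 5 early and squares for the 5 late libraries. The ratio of SLC2A1 to SLC2A3 lies between -2.46 and -1.15 in early and between -4.08 and -3.04 in late CCH, while the ranges of the other pairs overlap.

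In upper glycolysis, which traps glucose in the cell and splits it at the expense of ATP, 8 of the 11 genes tested had a positive log2FC, with a median of 0.13. ALDOC, a form of aldolase best known from brain, was 44.7, 80, 84.1, 64.6 and 59 in early and 111, 135, 91, 85.9 and 147 in late CCH. Every late library lay above every early library, but the highest early and the lowest late value were only 84.1 and 85.9. The log2FC was 0.77 ± 0.23 (SE, BY-adjusted p = 0.421, limma). ALDOA, the major aldolase, was more abundant, with 496 ± 130.4 in early and 814 ± 283 in late CCH (SD, n = 5 each), and 4 of its late values lay above every early value. Its log2FC of 0.69 ± 0.25 was close to that of ALDOC (BY-adjusted p = 0.827, limma), and the log2 ratio of ALDOA to ALDOC was 2.87 ± 0.61 in early and 2.79 ± 0.23 in late CCH.

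PFKFB3 encodes the enzyme that makes fructose 2,6-bisphosphate, the strongest activator of phosphofructokinase. It had the narrowest spread of all members in late CCH (SD of 0.15 on the log2 scale). Its values were 387 ± 49.4 in early and 552 ± 54.8 in late CCH (SD, n = 5 each), and 4 late libraries exceeded every early library. The log2FC of 0.51 ± 0.14 had an unadjusted p of 0.00237 and a BY-adjusted p of 0.244 (limma), and lay under the fold threshold. Its relative PFKFB4 was at 19 ± 7.26 and 20.1 ± 8.88 (SD, n = 5 each).

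GPI, the isomerase of glucose 6-phosphate, was 428 to 731 in early and 514 to 1350.3 in late CCH (log2FC 0.67 ± 0.27, SE). The phosphofructokinase genes differed in level. The liver form PFKL had 253 ± 73.6 and 358 ± 122, and the platelet form PFKP 205 ± 32.1 and 238 ± 92.9, in early and late CCH respectively (SD, n = 5 each). PFKM, the muscle form, was near the filter, with 20.9, 17.7, 36.2, 17.3 and 3.22 in early and 11.9, 4.76, 13.6, 2.05 and 6.3 in late CCH. These values overlapped, and the log2FC of -1.12 ± 0.65 rests on 106 early and 39 late reads. Skeletal muscle markers summed to 3.15 to 33.5 in early and 0 to 19.0 in late CCH. Their largest sum was in early library 3, which also had the highest PFKM value. Their part in the PFKM values was not tested.

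Of the hexokinases, which phosphorylate glucose on entry, HK1 was the most abundant and the steadiest, with the smallest SD of all members in early CCH (0.15 on the log2 scale). It ranged from 657 to 851 in early and from 496 to 695 in late CCH (log2FC -0.31 ± 0.14, SE, unadjusted p = 0.0442 and BY-adjusted p = 1, limma). HK2, the HIF-inducible form, spread widely, from 48 to 196 in early and from 15.5 to 334 in late CCH. Its log2FC was 0.12 ± 0.69, and lay between -0.35 and 0.74 when single libraries were omitted. HK3, a form of myeloid cells, had 3 reads over the early and 6 over the late libraries, which is too few for a comparison. TPI1, the triosephosphate isomerase, was 616 ± 93.7 in early and 484 ± 111 in late CCH (SD, n = 5 each), a log2FC of -0.37 ± 0.18.

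**Figure D3:**
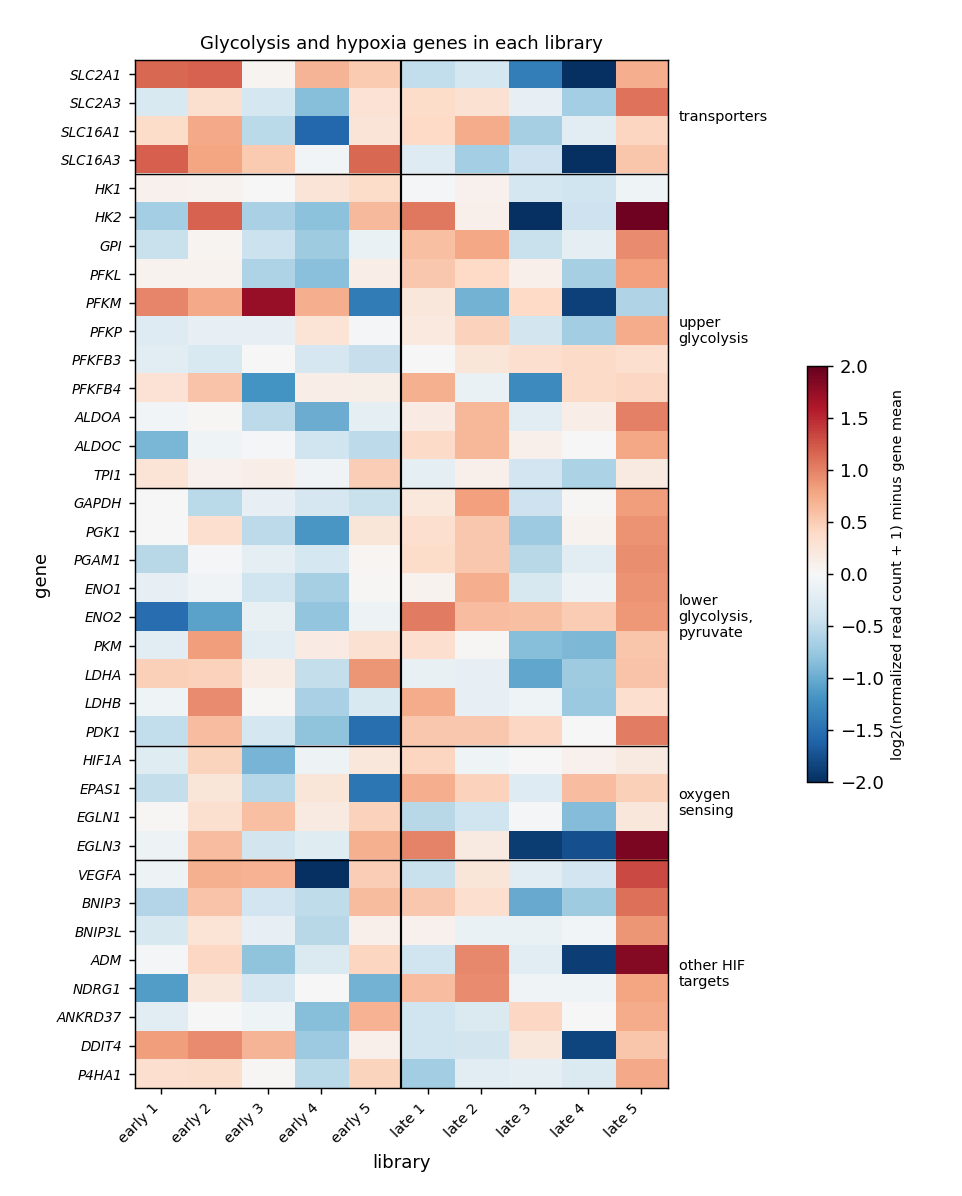
Log2(normalized read count + 1) of each tested gene (rows, grouped by role) minus its mean over the 10 libraries (columns, the vertical line divides early from late), with colors ending at -2 and 2. Late library 5 is the highest late library for 26 of the 36 genes, and late libraries 3 and 4 are the lowest for 14 and 17.

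Lower glycolysis, which recovers ATP, held the most abundant members. GAPDH, widely used as a reference gene, had normalized read counts of 5237, 3631, 4699, 4167 and 3877 in early and of 6096, 9322, 3933, 5311 and 9331 in late CCH. Late library 3 lay within the early range and the other 4 late libraries lay above it. The log2FC of GAPDH was 0.59 ± 0.24 (SE, unadjusted p = 0.0278 and BY-adjusted p = 1, limma). Over all libraries, GAPDH averaged 5560.4, PKM 2564, PGAM1 1689 and ENO1 1082.

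ENO2 had the largest log2FC of all members and came closest to a call. It encodes gamma-enolase, the enolase form typical of neurons and neuroendocrine cells that HIF can also induce. Its values were 18.1, 25.1, 48.8, 30.7 and 50.5 in early and 112, 83.7, 82.3, 77.7 and 99.7 in late CCH. The lowest late library lay well above the highest early library. The means of 34.6 ± 14.4 and 91.2 ± 14.5 (SD, n = 5 each) gave a log2FC of 1.46 ± 0.29 (SE, 95% interval 0.82 to 2.10) with a BY-adjusted p of 0.0768 in limma. The adjusted p was 0.103 in edgeR and 0.00177 in DESeq2. When each library was left out in turn, the log2FC of ENO2 lay between 1.26 and 1.62, with a BY-adjusted p of 0.071 to 0.21 (limma). The gene had 186 reads over the early and 457 over the late libraries.

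ENO1, the common enolase, was much more abundant, with 873 ± 160.4 in early and 1291 ± 481 in late CCH (SD, n = 5 each). This is a log2FC of 0.51 ± 0.24 (SE, limma, BY-adjusted p = 1). The log2 ratio of ENO1 to ENO2 went from 4.70 ± 0.68 in early to 3.74 ± 0.51 in late CCH, with overlapping ranges. PGK1 and PGAM1, which carry out the steps before enolase, had log2FC values of 0.45 and 0.43, and those of PKM, the pyruvate kinase of most tissues, and of LDHA lay at -0.33 and -0.60.

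LDHA, the lactate dehydrogenase subunit that favors lactate formation and is a classic HIF target, was 584 to 1501 in early and 395 to 1208 in late CCH. Its 95% interval of -1.25 to 0.06 reached over 0. LDHB, the subunit typical of oxidative tissue, was at 184 ± 86.7 and 185 ± 71 (SD, n = 5 each). LDHA exceeded LDHB in every library, with a log2 ratio of 2.55 ± 0.61 in early and 1.92 ± 0.56 in late CCH.

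PDK1 phosphorylates and thereby inactivates pyruvate dehydrogenase, which keeps pyruvate out of mitochondria. It had 22.8, 50.2, 25.3, 18.1 and 10.7 in early and 47.7, 47.6, 43.6, 32.7 and 67.1 in late CCH. Early library 2 lay above 4 of the late libraries, and the other early libraries lay below all of them. The log2FC was 1.01 ± 0.38 (SE, BY-adjusted p = 0.876, limma). It rested on 139 early and 239 late reads, and was 0.76 without early library 5 and 1.29 without early library 2.

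**Figure D4:**
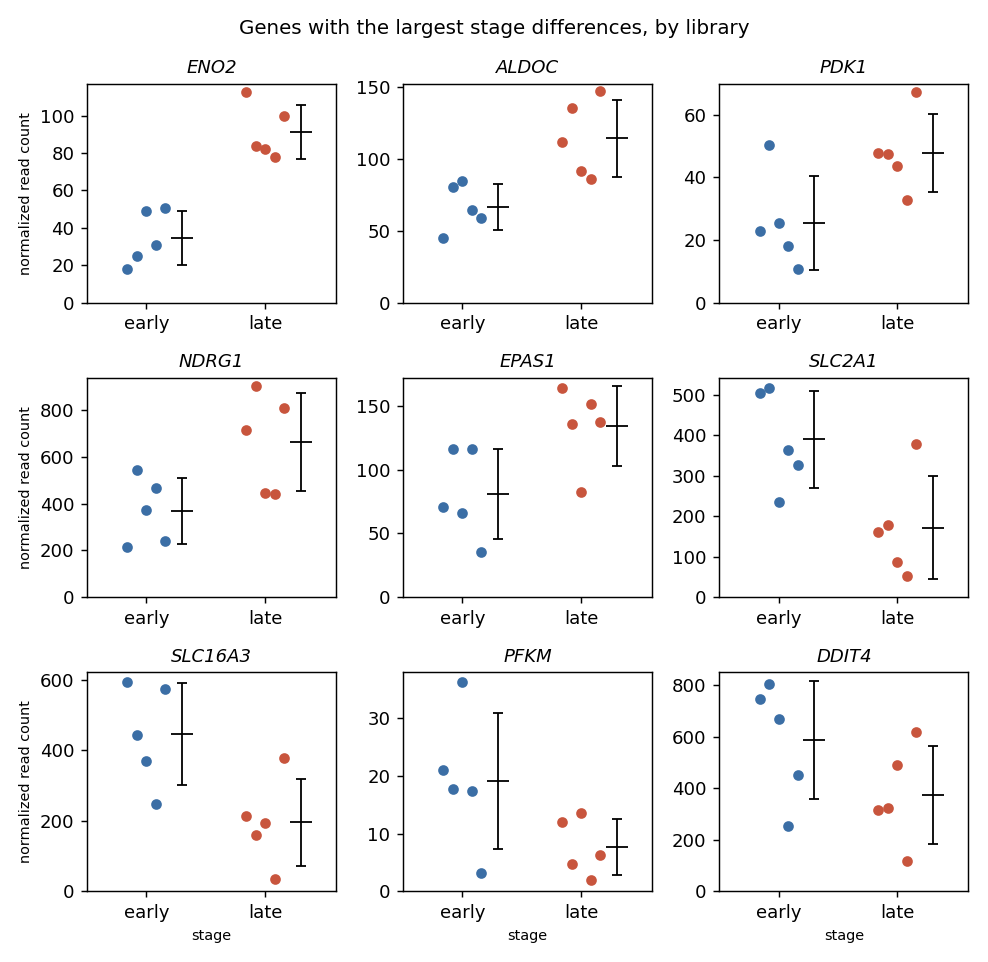
Normalized read count (y axis, starting at 0) of the 9 genes with the largest stage differences in the 5 early and 5 late libraries (points), with mean and SD at the side. Early and late values of ENO2 and ALDOC do not overlap, and late library 5 is the highest late value of SLC2A1, SLC16A3 and DDIT4.

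Among the genes of oxygen sensing, the HIF subunits and the hydroxylases were measured. HIF1A, whose protein is controlled mainly by degradation, ranged from 204 to 530.3 in early and from 368 to 527 in late CCH (log2FC 0.25 ± 0.23, SE). EPAS1 encodes HIF-2 alpha, which is prominent in endothelium and macrophages. It had 70.4, 116, 66, 117 and 35.4 in early and 164, 136, 82.3, 151 and 137 in late CCH, where 4 late libraries lay above every early library. Its log2FC was 0.81 ± 0.32 (SE, unadjusted p = 0.026 and BY-adjusted p = 1, limma).

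An endothelium list of 8 genes summed to 443 to 959 in early and 600.1 to 1231 in late CCH, and a macrophage list of 9 genes to 2587 to 11070.0 and 5878 to 11364. Their part in the EPAS1 values was not tested. EGLN1, the main oxygen sensor, was 201 ± 31.7 in early and 132 ± 39.4 in late CCH (SD, n = 5 each), and 4 late libraries lay below every early library. EGLN1 had a log2FC of -0.64 ± 0.22 (SE, limma, BY-adjusted p = 0.615). EGLN3, itself a HIF target, was 57.9 to 123 in early and 19.4 to 279 in late CCH and had the widest spread of all members in late CCH (SD of 1.67 on the log2 scale). Its log2FC was -0.25 ± 0.64 in limma and 0.38 in edgeR, so that its direction depended on the method.

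The other HIF targets had a median log2FC of 0.15 over the 8 genes tested. NDRG1, a gene induced by hypoxia and by differentiation, had 214, 545, 372, 468 and 242 in early and 715, 904, 446, 442 and 809 in late CCH. The late values of libraries 1, 2 and 5 lay above every early value and the remaining 2 within the early range. Its log2FC of 0.88 ± 0.29 (SE, BY-adjusted p = 0.595, limma) was the largest of this group.

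DDIT4, an inhibitor of mTOR signaling that hypoxia and stress induce, had 746, 804, 669, 254 and 452 in early and 316, 323, 491, 117 and 617 in late CCH. The stages overlapped, and the log2FC was -0.73 ± 0.42 (SE, BY-adjusted p = 1, limma). Without late library 4, where the gene was lowest, it was -0.36.

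VEGFA, the growth factor of blood vessels, was 25.2 to 209 in early and 93.5 to 319 in late CCH (log2FC 0.20 ± 0.54, SE, 95% interval -0.97 to 1.37). The mitophagy receptors BNIP3 and BNIP3L had log2FC values of 0.10 ± 0.40 and 0.26 ± 0.23, the vasodilator peptide gene ADM 0.12 ± 0.59, ANKRD37 0.18 ± 0.30 and P4HA1, a subunit of collagen prolyl hydroxylase, -0.25 ± 0.27 (SE each). CA9, a carbonic anhydrase of the cell surface that is nearly absent without HIF activity, had 11.4, 3.72, 6.33, 2.36 and 6.44 in early and 0, 11.4, 1.94, 0 and 17.8 in late CCH. Late libraries 1 and 4 had no CA9 read, which allows up to 2.98 and 3.07 on the scale of normalized read counts, and late library 5 had the highest value of all. Intervals and limits of this kind cover counting error and the spread of these libraries only.

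The late tumors differed among themselves in an order that many members shared. Late library 5 was the highest late library for 26 of the 36 members (72.2%), while it was highest for 20.4% of all genes tested. It was the lowest for none of them. Late library 4 was the lowest for 17 members (47.2%, against 18.2% of all genes) and late library 3 for 14 (38.9%, against 23.3%). Late library 5 was highest for 3 of 4 transporters, 7 of 11 genes of upper and 7 of 9 of lower glycolysis and 7 of 8 other HIF targets. In oxygen sensing, late libraries 1 and 5 were each highest for 2 of 4 genes. The further pathway lists described below shared the pattern less. There, late library 5 was highest for 7 of 23 other genes of glycolysis, glycogen and glucose transport and 4 of 16 of the pyruvate dehydrogenase list. It was highest for 1 of 10 pentose phosphate genes and 2 of 14 HIF regulators and partners.

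HK2 was 21.5-fold higher in the highest than in the lowest late library, ADM 15.0-fold, EGLN3 14.4-fold and SLC16A3 10.6-fold. In each of these genes late library 5 was the highest and late library 3 or 4 the lowest. PFKFB3, HK1, HIF1A and ENO2 varied by 1.30-fold, 1.40-fold, 1.43-fold and 1.45-fold, and in none of these was late library 5 the highest. The SD on the log2 scale was larger in late than in early CCH for 23 of 36 members, a larger share than the 48.5% of all genes tested. The median SD of the members was 0.50 in early and 0.56 in late CCH, against 0.42 and 0.41 over all genes.

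Early tumors were ordered as well. Early library 2 was the highest early library for 16 members and early library 5 for 12, which held for 23% and 17.3% of all genes. Early library 4, which had the most reads counted to genes, was the lowest for 17 members (24% of all genes). Its VEGFA value was 25.2, where the other early libraries had 118 to 209.

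**Figure D5:**
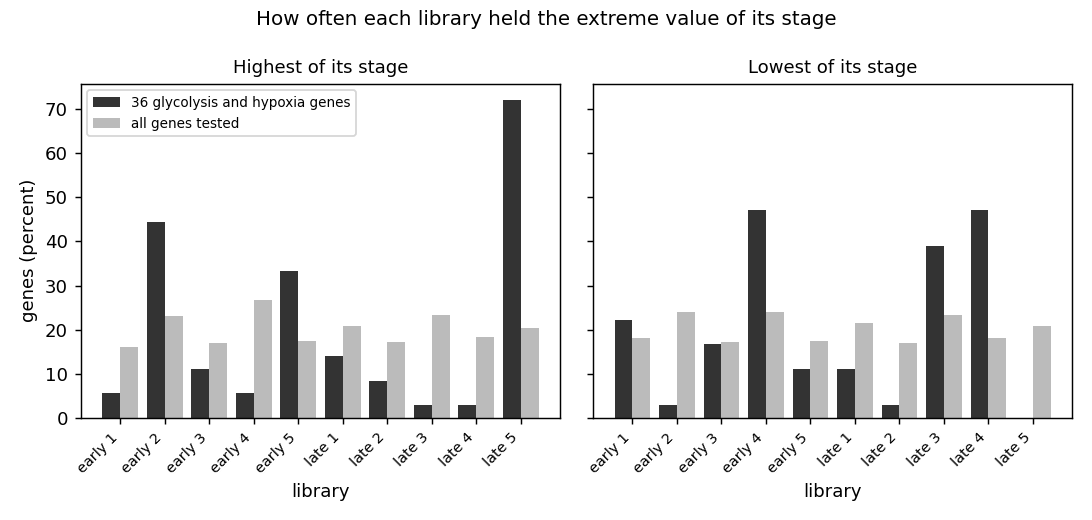
Percent of genes (y axis, from 0) for which each library (x axis) held the highest (left) or lowest (right) value of its stage, for the 36 glycolysis and hypoxia genes (dark) and all 12397 genes tested (light). Late library 5 holds the highest late value for 72.2% of the 36 genes and for 20.4% of all genes.

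The members as a whole moved with the choice of libraries. Without late library 5, 18 of the 36 members had a positive log2FC and their median log2FC was -0.0068. It was 0.069 with 19 positive values without early library 4, and 0.34 without late library 3 and 0.37 without early library 2. No member was called in any of these fits. As a share of all reads counted to genes, the 38 members took 0.593% ± 0.0903 in early and 0.758% ± 0.26 in late CCH (SD, n = 5 each). The late libraries held 0.771%, 0.903%, 0.489%, 0.522% and 1.11%, so that late libraries 3 and 4 lay within the early range of 0.462% to 0.703% and the other 3 above it. Lower glycolysis made up most of this, with 0.34% ± 0.0413 and 0.457% ± 0.165.

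Marker lists also differed among the late libraries. The B-cell list of 7 genes summed to 3169 in late library 3 and to 604 to 1126 in the others. The proliferation list of 8 genes was lowest in late library 3 with 639, against 1176 to 1581 in the other late libraries. The keratinocyte list reached 8805 in late library 2 and 6865 in late library 5, against 706 to 2013 in the other 3. The fibroblast list of 7 genes was at 10713 in late library 5 and at 12659.9 to 35886 in the others. Late library 5 was the lowest late library for 4 of these 7 genes, and late library 3 for 3. The neutrophil list of 7 genes was 9405 in late library 2 and 609 to 1832 in the others. Its gene MPO was at 0 in all late libraries. The endothelium list was lowest in late library 5 with 600.1, against 1000.1 to 1231 in the others, and late library 5 was the lowest late library for 6 of its 8 genes. Whether any of these lists accounts for the order of the late libraries was not tested.

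Further genes of the same pathways were counted from 5 lists. Of 37 other genes of glycolysis, glycogen and glucose transport, 23 were tested and none was called, with a median log2FC of 0.02. They ranged from SLC2A9 with 1.24 to TIGAR, a p53 target that lowers fructose 2,6-bisphosphate, with -1.10. TIGAR was 208 ± 63.5 in early and 95.5 ± 24.7 in late CCH (SD, n = 5 each, BY-adjusted p = 0.133, limma), and its late values all lay below the early values. A list of pyruvate dehydrogenase, its regulators and other genes of pyruvate metabolism gave no call among 16 genes tested (median log2FC -0.09). It ranged from PDK4 with 0.96 to ME1, a malic enzyme gene, with -0.97.

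The pentose phosphate pathway branches from glucose 6-phosphate to make NADPH and ribose. Of its 10 genes tested, 1 was called higher, where 1.06% of all genes tested were. TKT, the transketolase that links this pathway back to glycolysis, was 874, 1333, 694, 869.5 and 1074 in early and 3340.0, 2888, 2009.6, 7445 and 3105 in late CCH. All late libraries lay above all early libraries, and late library 4, which had the lowest late value of 17 members, was the highest. TKT rose by 1.84 ± 0.30 on the log2 scale (SE, limma, BY-adjusted p = 0.0318). Omitting single libraries moved its adjusted p to between 0.0205 and 0.0903, and the call was lost without early library 1, 3, 4 or 5 or late library 1, 2 or 5. The median of this list was 0.15, with PGD the lowest at -0.53.

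Among regulators and partners of HIF, none of 14 genes tested was called (median log2FC 0.02), and they ranged from USP20 with 1.07 to RBX1 with -0.53. Of 51 other hypoxia-inducible genes, 46 were tested. Their median log2FC was 0.45, with 29 positive and 17 negative values. Over all genes tested the median was -0.0037, with 6171 positive and 6226 negative values. At an unadjusted p of at most 0.05 in limma, 15 of these genes were higher (15.6% of all genes tested) and 2 were lower (15.3%). For 4 of them all late values lay above all early values, as for 5.91% of all genes tested. Of the 46 genes, 1 was called higher, where 1.06% of all genes tested were. ZNF395, a transcription factor gene, had means of 153 ± 26.9 in early and 363 ± 65.8 in late CCH (SD, n = 5 each), with all late above all early values. It rose by 1.24 ± 0.17 on the log2 scale (SE, limma, BY-adjusted p = 0.0169), and lost the call without early library 1 or 5 or late library 2 or 4 (adjusted p of 0.0531 to 0.0629). TGM2 had the highest log2FC of the list with 2.57 (BY-adjusted p = 0.0731, limma) and LOX the lowest with -0.89. Among the uncalled genes named from these lists, TGM2 and USP20 were called higher and TIGAR lower with BH adjustment and in DESeq2, but not in edgeR. BH adjustment called 5.53% of all genes tested higher and 3.52% lower. In this list late library 2 was the highest late library for 15 and late library 5 for 14 of the 46 genes, and late library 3 the lowest for 21.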

How the data were processed

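The authors trimmed reads with Cutadapt, aligned them with STAR to CanFam3.1 and counted them per RefSeq gene with featureCounts, repeating this for unassigned reads on genes extended downstream, and split multi-mapped reads evenly. Versions are not given in the sources used here. Genes with near-identical copies, such as GAPDH, are uncertain for this reason. The deposited unit is a normalized signal, read counts that the authors divided by 1 size factor per library. All 166096 values above 0 were whole multiples of the smallest value of their library (within 0.001), which was taken as 1 read. Splitting reads evenly can give fractions, and how these became whole counts is not given in the sources used here. The upper limit for a gene without reads (3 reads) lay at 2.36 to 3.22. A further 11 columns belong to no sample of this series and were not used. Column names show the stage but not the sample, so that library numbers are names only.

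Genes that reached a value of 10 in 5 or more libraries were tested with limma 3.58.1 (trend) in R 4.3.3 on log2(value + 1), without covariates, which understates changes of low genes. P-values were BY-adjusted over 12397 genes. For read counts recovered from the deposited values, edgeR 4.0.16 and DESeq2 1.42.0 were run as alternatives, and the scripts were tested on simulated data. Totals and DV200 were compared with exact two-sided permutation tests over 252 assignments. Each library stands for 1 tumor, and p-values measure the spread between these tumors. The members and lists were chosen with earlier results of these data known, and no test was made over the members. Values in every library are given for members that were called, did not overlap between stages, or had the 4 largest or 4 smallest log2FC. Values of GAPDH and CA9 in every library, the order of libraries and the marker lists shown were chosen after values were seen. From the pathway lists, calls and the highest and lowest log2FC are named. In the RefSeq table of UU_Cfam_GSD_1.0, used for names only, all 38 members were found and 15 overlap another gene, among them SLC2A1, SLC16A3, PFKM and PDK1, and reads of such pairs may be confused. The library kit keeps the strand, but the strand setting of the counting is not given in the sources used here. Promoter motifs were not analysed here.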

Additional observations from a re-analysis of the deposited data

Results flagged for a closer look

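The lowest and highest values of every tested member were examined for isolation within a stage (72 groups of 5 libraries), as the distance to the closest other library relative to the spread from lowest to highest. Normalized read counts without a log were used, and isolation on the log2 scale was not examined. This proportion passed Dixon's limit of 0.71 for 3 groups. About 3.6 would do so by chance alone if values within a stage were normally distributed. On this scale, late library 5 was the isolated one each time, above the remaining late libraries. BNIP3L was 262 there and 151 in the next library, a proportion of 0.839. P4HA1 was 405 against 209 (0.759), and VEGFA 319 against 151 (0.744).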

How the results depend on the processing

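No paired analysis was possible because the replicate numbers in the labels could not be matched to libraries by the column names, and early and late tumors come from different dogs. No member was called under TMM or column total scaling, a pseudocount of 0.5 or 5, no filter, a mean of at least 50, no fold threshold, edgeR or the omission of any library. BH adjustment called 1 member higher and 1 lower, and DESeq2 called 1 higher. Over all genes, 131 were called higher and 138 lower, against 685 and 436 with BH, 81 and 96 with edgeR, and 480 and 330 with DESeq2. Leaving out a library gave 18 to 144 higher and 29 to 153 lower. Higher calls fell to 31 and 20 without early library 1 or 5, and to 29, 18, 76, 19 and 39 without late library 1 to 5 in turn. Column total scaling raised the median log2FC of all genes from -0.0037 to 0.085 and the higher calls to 169 against 95 lower. EGLN3 was positive in edgeR (0.38) and DESeq2 (0.37). Leaving out a library turned the sign of SLC16A1 (-0.072 to 0.51), HK2 (-0.35 to 0.74), PFKP (-0.036 to 0.33), PFKFB4 (-0.25 to 0.36), LDHB (-0.15 to 0.27), VEGFA (-0.35 to 0.41), BNIP3 (-0.16 to 0.37), ADM (-0.32 to 0.61), ANKRD37 (-0.0070 to 0.38) and EGLN3 (-0.75 to 0.20), given here as the lowest and highest log2FC. The cause of these changes was not tested.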
